A study of Homo sapiens with 46 samples.

Results

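The genes described here are 37 human genes of homologous recombination and of the Fanconi anaemia pathway, chosen by symbol and not by their values. They are 37 of the 61228 genes in the deposited HCT116 table and of the 30160 genes in the HEK293 table, and all 37 were found and passed the filter on low counts in every fit. RNA was sequenced from cell lines that lost Ku, the ring of Ku70 (XRCC6) and Ku80 (XRCC5) that holds broken DNA ends for end joining. The study holds 46 libraries, 40 from HCT116 colon carcinoma cells and 6 from HEK293 kidney-derived cells.

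HCT116 clones with genotype Ku80-AID make Ku80 with a degron tag that auxin turns into a signal for destruction. To remove Ku80, 100 µM of the auxin indole-3-acetic acid (IAA) was given together with 0.5 µg/mL doxycycline, so both compounds come with Ku80 loss, and the controls had DMSO. IAA was given for 1 day (clones 1 and 9) and for 2, 4 and 6 days (clones 1, 7 and 9). DMSO controls were taken at 1 day (clones 1 and 9) and at 2 days (clones 1, 7 and 9), so the 4-day and 6-day IAA groups have no control of their own time, and the comparisons at 2, 4 and 6 days share the 2-day DMSO libraries. The same clones received a CDK4/6 inhibitor (CDKi), a compound that holds cells in G1, with IAA and doxycycline or without, for 2 days (clones 1 and 9) and 4 days (clones 1, 7 and 9). Ku80-AID clones that also lacked MAVS (MAVS-/-, clones 1, 13 and 15), the adaptor of RIG-I-like RNA sensors, had 4 days of IAA or of DMSO. HCT116 Ku86flox/- cells, whose only Ku80 allele is floxed, were given 50 nM 4-hydroxytamoxifen (4OHT) or ethanol for 4 days, with CreERT2 or without it, in 2 libraries a group. HEK293 clones Sa11, SB and TI are Ku70-/- and live on a Ku70 transgene that doxycycline keeps on. They were compared after 8 days without doxycycline and with 1 µg/mL of it.

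Homologous recombination repairs a broken chromosome from its sister copy: nucleases trim the ends, BRCA1 and BRCA2 with their partners prepare the exposed strand to pair with the sister, and junctions between the sisters are later cut or dissolved. The Fanconi proteins detect cross-linked DNA at stalled forks, attach ubiquitin to FANCD2 and FANCI and pass the lesion to the same recombination machinery. The pathway works in S and G2 phase, and many of its genes are transcribed mainly in proliferating cells.

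HCT116 libraries held 9527918 to 45747408 estimated counts and HEK293 libraries 19568398 to 28483236, and a member had at least 17 counts in every library. XRCC5 RNA averaged 27.8 CPM (counts scaled to a common library total) with 4OHT and 257 CPM with ethanol in Cre cells, XRCC6 averaged 454 CPM without doxycycline and 3004 CPM with it in HEK293, and MAVS averaged 169 CPM in MAVS-/- clones and 406 CPM in the other clones, both after 4 days of IAA. The degron acts on protein, so RNA does not check it. EPCAM was present in HCT116 libraries, CEACAM5 and LGALS4 were near 0, and the leukocyte and endothelial genes PTPRC, CD3E and PECAM1 were at or near 0. The libraries at 1 day and those of the 2-day CDKi groups stood apart from the other Ku80-AID libraries: VIM averaged 46 CPM at 2 days of CDKi and 44.2 CPM at 1 day of DMSO, against 3.21 CPM at 2 days of DMSO. The library of clone 9 at 4 days of CDKi had 16.1% of its counts on mitochondrial genes, against 4.16% to 10.5% in the other HCT116 libraries.

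Levels per transcript length (TPM) spread widely among the members. In Ku80-AID clones at 2 days of DMSO, FANCA was the highest at 119 ± 12.5 TPM (SD, n = 3), with RAD51C at 102 ± 7.89 TPM and FANCI at 90.9 ± 11.2 TPM. FANCF was the lowest at 4.02 ± 0.176 TPM, and SLX4 at 9.24 ± 0.807 TPM and RAD51B at 9.31 ± 2.19 TPM, the next above it, did not differ beyond their spread. HEK293 cells with doxycycline had RAD51C at 247 ± 20.4 TPM and FANCI at 206 ± 19.6 TPM at the top and FANCF at 7.06 ± 1.90 TPM at the bottom. HCT116 and HEK293 levels come from different library chemistries and were not compared.

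Most members were lower from the second day of Ku80 degradation. In edgeR's quasi-likelihood test with Benjamini-Hochberg adjustment at 0.05, 27 of 37 members were lower and 0 higher at 2 days of IAA than at 2 days of DMSO (of all genes tested, 9.94% were lower and 9.12% higher). At 4 days 27 were lower and 1 was higher (14.9% and 17.9% of all genes), and at 6 days again 27 were lower and 1 was higher (17.5% and 17.8%). The median log2 fold change of the members was -0.69 at 2 days, -0.92 at 4 days and -0.80 at 6 days, while the median over all genes tested lay between -0.05 and 0.05 in all 17 planned comparisons. At 1 day edgeR called no member (0.0689% of all genes were lower and 0.117% higher), 1 had an unadjusted p under 0.05, and DESeq2 and limma called 0. With the 1-day groups alone in the fit, FANCD2 and DNA2 were called lower, while 1607 of all 16081 genes tested were called in either direction. Without the 2-day IAA library of clone 1, 15 members were called at 2 days.

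Summed over the 37 members, expression was 1079, 1298 and 1439 CPM in clones 1, 7 and 9 at 4 days of IAA, against 2118, 2288 and 2249 CPM in the same clones with DMSO. The groups do not overlap. A list of 52 cell cycle genes, most of them targets of the E2F factors, summed to 2714 ± 374 CPM with 4 days of IAA and 8615 ± 659.9 CPM with DMSO (SD, n = 3 each), and its part in the drop of the members was not tested. In bulk RNA, fewer cells of a kind (here, cells in S phase) and less RNA per cell cannot be told apart. The blood and stroma list of 5 genes summed to 63.9 to 153 CPM with IAA and 25.7 to 35.8 CPM with DMSO, and its part was not tested either. In each of these libraries 3 of the 5 were at 0. The log2 fold changes of the 2 that passed the filter on low counts were 0.09 and 3.77.

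**Figure D1:**
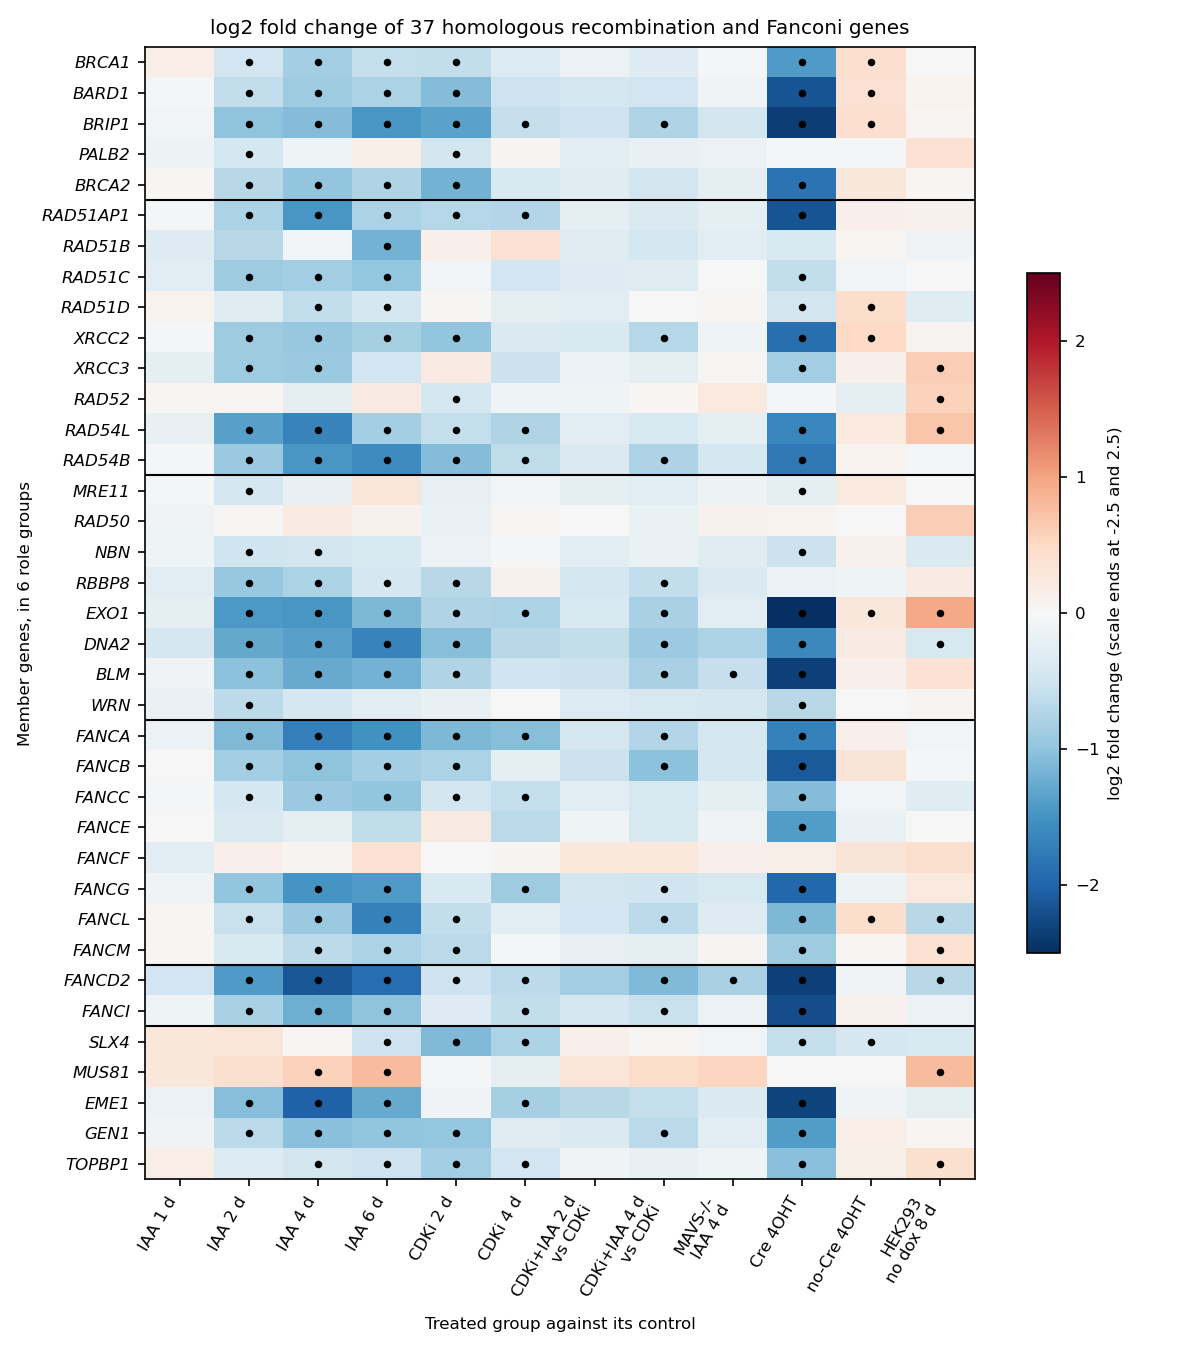
Log2 fold change (colour, shown to 2.5 in either direction) of the 37 member genes (rows, in role groups) in comparisons of a treated group with its control (columns); a black point marks an edgeR adjusted p under 0.05. Blue fills most of the IAA columns from 2 days on and the Cre 4OHT column, where 30 members passed, while the MAVS-/- column is pale blue with 2 points, and the no-Cre and HEK293 columns mix pale blue and red.

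Of the genes of BRCA1, BRCA2 and their partners, whose proteins commit a break to recombination, 4 of 5 were lower at 4 days. BRIP1, a helicase bound to BRCA1, had 27.8, 40.8 and 41.8 CPM in clones 1, 7 and 9 with IAA, against 72.9, 83.4 and 78.2 CPM with DMSO. All 3 IAA libraries lay below all 3 DMSO libraries, and the log2 fold change was -1.09 ± 0.18 (SE; edgeR adjusted p = 2.44e-05). BRCA1 had 45, 43.1 and 64.1 CPM with IAA, against 80.1, 92.2 and 101 CPM with DMSO, again without overlap (-0.85 ± 0.15). BRCA2, a gene of inherited breast and ovarian cancer, fell by 0.99 ± 0.18 and BARD1, the ubiquitin-ligase partner of BRCA1, by 0.88 ± 0.19 on the log2 scale. PALB2, which links BRCA1 to BRCA2, did not pass at 4 days (-0.10 ± 0.14) or at 6 days (0.14 ± 0.14), though it did at 2 days (-0.45 ± 0.14).

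Among the 9 genes of strand pairing and exchange, 7 were lower at 4 days. RAD54L, a motor protein that drives strand exchange, had 15.1, 7.95 and 13.5 CPM with IAA, against 36.5, 44.3 and 36.3 CPM with DMSO. Every IAA library was below every DMSO library, and the log2 fold change was -1.68 ± 0.20 (edgeR adjusted p = 2.65e-07). RAD51AP1, which stimulates strand pairing, had 13, 11.1 and 15.5 CPM with IAA, against 33.6, 35.6 and 39.2 CPM with DMSO (-1.46 ± 0.18). RAD54B, the paralogue of RAD54L, had 14.4, 13.5 and 21.6 CPM with IAA, against 42.5, 49.99 and 41.7 CPM with DMSO (-1.45 ± 0.19). Clone 7 was the lowest of the IAA libraries for RAD54L and RAD51AP1. RAD51C, RAD51D, XRCC2 and XRCC3 fell by 0.87, 0.62, 0.95 and 0.93 on the log2 scale. RAD51B, one of the least expressed members, did not pass at 4 days (-0.07 ± 0.28) but did at 6 days (-1.18 ± 0.29). RAD52, an annealing protein, passed at no IAA time (-0.22 ± 0.13 at 4 days).

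Of the 8 genes of end resection, 5 were lower. EXO1, the exonuclease of long-range resection, had 17, 24.3 and 31.2 CPM with IAA, against 57.6, 72.9 and 67.7 CPM with DMSO. The groups did not overlap (log2 fold change -1.46 ± 0.19, edgeR adjusted p = 1.07e-06). DNA2, the nuclease that works with a helicase on the same step, fell by 1.36 ± 0.25, BLM, such a helicase, by 1.26 ± 0.17 and RBBP8 (CtIP), which starts resection, by 0.80 ± 0.14. In the MRE11-RAD50-NBN complex, which senses the end first, MRE11 and RAD50 did not pass (-0.18 ± 0.14 and 0.23 ± 0.14). NBN, the other subunit, passed narrowly (-0.46 ± 0.17, edgeR adjusted p = 0.0415), and not with the clone as a block (edgeR adjusted p = 0.0594). WRN, a helicase of the RecQ family, did not pass (-0.43 ± 0.17, edgeR adjusted p = 0.0556) but did with that block (edgeR adjusted p = 0.0133).

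In the Fanconi core complex, which attaches ubiquitin to FANCD2, 6 of 8 genes were lower. FANCA had 61.8, 32.8 and 50.9 CPM with IAA, against 143, 165 and 168 CPM with DMSO. The highest IAA library was under the lowest DMSO library (log2 fold change -1.71 ± 0.16, edgeR adjusted p = 7.95e-09). FANCG, its direct partner, had 17.7, 15.3 and 17.6 CPM with IAA, against 39.6, 47.9 and 52.8 CPM with DMSO (-1.47 ± 0.16). FANCB, FANCC, FANCL and FANCM fell by 1.01, 0.92, 0.92 and 0.66, while FANCE (-0.22 ± 0.26) and FANCF (0.06 ± 0.19) did not pass. FANCL, the ubiquitin ligase of the complex, was lower still at 6 days of IAA, with 26.1, 32.5 and 24.8 CPM at 6 days, against 40.5, 54.2 and 46.6 CPM at 4 days (-0.76 ± 0.15, edgeR adjusted p = 0.00223).

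FANCD2 and FANCI form the clamp that the core modifies, and FANCD2 had the largest drop of the 37 genes at 4 days. It had 18, 23.6 and 18.9 CPM in clones 1, 7 and 9 with IAA, against 83.8, 94 and 88.2 CPM with DMSO. The highest library with IAA was far below the lowest with DMSO, and the log2 fold change was -2.14 ± 0.18 (edgeR adjusted p = 1.17e-09). FANCI had 72.2, 72.6 and 91.4 CPM with IAA, against 166, 190.01 and 192 CPM with DMSO (-1.22 ± 0.14).

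Of the 5 genes that act on late junctions, 3 were lower and 1 was higher. EME1, the partner subunit of the MUS81 endonuclease, had 8.81, 5.54 and 8.68 CPM with IAA, against 26.1, 38.3 and 29.4 CPM with DMSO. The groups did not overlap (log2 fold change -2.03 ± 0.23, edgeR adjusted p = 1.27e-07). GEN1, a Holliday junction resolvase, fell by 1.05 ± 0.18 and TOPBP1, a scaffold of the ATR checkpoint, by 0.46 ± 0.13, while SLX4, the nuclease scaffold, did not pass (0.04 ± 0.16).

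MUS81, the catalytic partner of EME1, went the other way. It had 36.6, 22.2 and 35 CPM in clones 1, 7 and 9 at 4 days of IAA and 30.7, 43 and 36 CPM at 6 days, against 20.9, 21.4 and 21 CPM with DMSO. All IAA libraries lay above the DMSO libraries, clone 7 at 4 days by little. The log2 fold change was 0.57 ± 0.18 at 4 days (edgeR adjusted p = 0.0168) and 0.79 ± 0.18 at 6 days (edgeR adjusted p = 0.00109). Leaving out the 4-day library of clone 1 or of clone 9 ended the 4-day call (edgeR adjusted p = 0.0813 and 0.0676). On log2(TPM + 1) the changes were smaller, 0.36 at 4 days and 0.29 at 6 days, and in limma neither passed (adjusted p = 0.101 and 0.201). MUS81 shares 759 exon bases with CFL1 on the other strand, and the strand setting of the counting is not given in the sources used here. CFL1 fell by 0.40 at 4 days. The same uncertainty holds for other members that share exon bases with a protein-coding gene on the other strand: EME1 (541 bases with LRRC59), RAD54L (806 with LRRC41), XRCC3 (5756 with KLC1), FANCA (2302 with ZNF276), FANCI (458 with POLG), FANCL (452 with VRK2), FANCF (333 with GAS2), FANCD2 (261 with FANCD2OS), MRE11 (225 with ANKRD49) and GEN1 (107 with SMC6). The partner had the higher mean count for EME1 (6617 for LRRC59 and 375 for EME1 per HCT116 library), RAD54L, XRCC3 and GEN1, as for MUS81. RAD54B with FSBP (3139 bases) and RAD50 with AC116366.3 (7784 bases) overlap on the same strand, where no strand setting separates them, and so does RAD51D with a readthrough gene (905 bases).

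**Figure D2:**
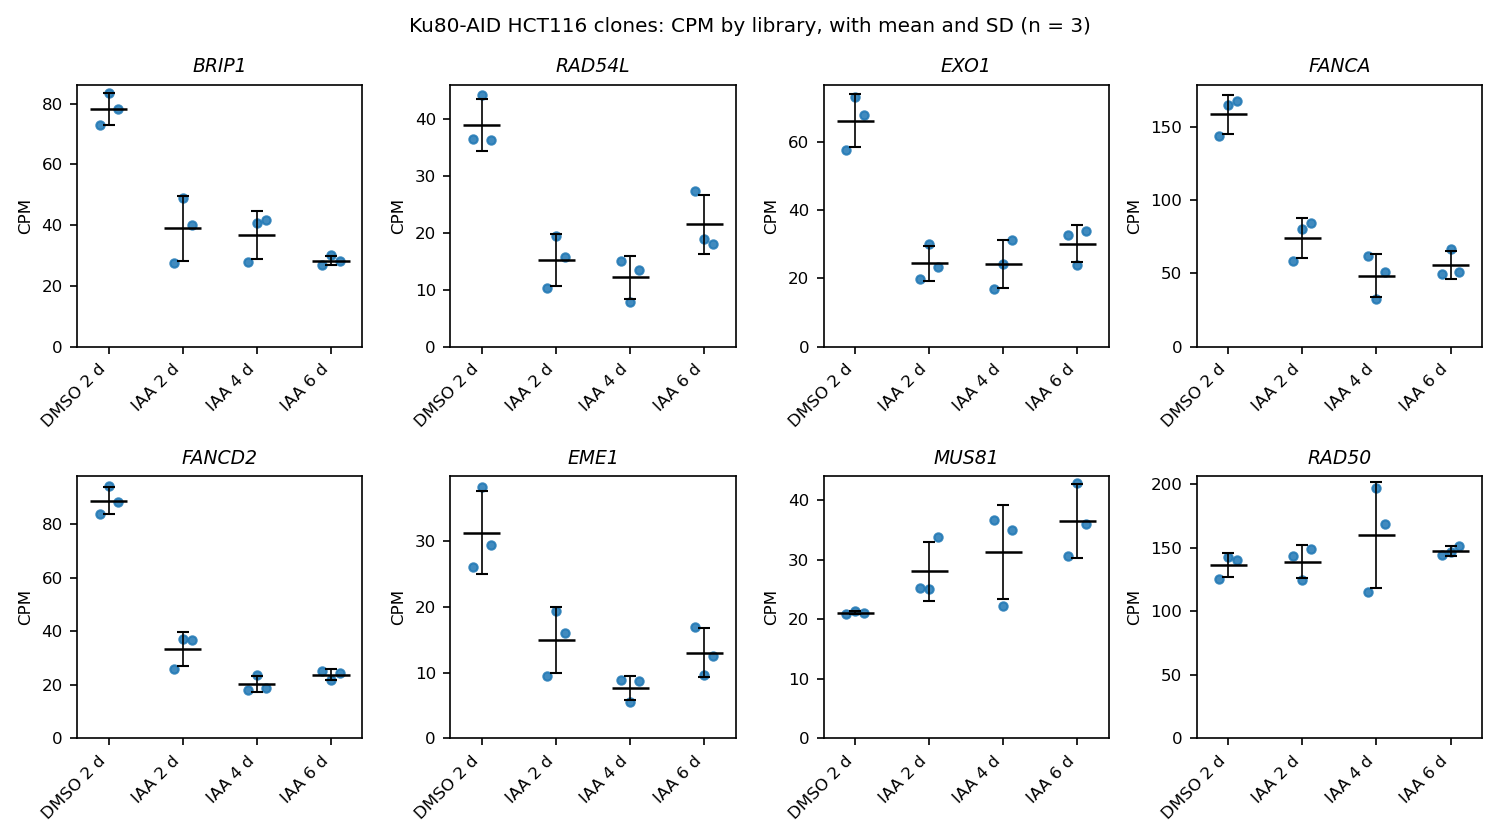
CPM of 8 member genes (panels) in each Ku80-AID library at 2 days of DMSO and at 2, 4 and 6 days of IAA; points are clones 1, 7 and 9, lines the mean, bars the SD. BRIP1, RAD54L, EXO1, FANCA, FANCD2 and EME1 lie below their DMSO libraries at each IAA time, MUS81 lies above them, and RAD50 passed the test at none of these times.

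Between IAA times few members moved. At 4 days 5 were lower than at 2 days and 0 higher (3.44% and 4.73% of all genes): EME1 fell by 0.96, FANCD2 by 0.72, RAD51AP1 by 0.67, FANCA by 0.61 and FANCC by 0.49 on the log2 scale. This count was 0 without the 2-day library of clone 7, 1 without that of clone 9 or without the 4-day library of clone 7, 10 without the 4-day library of clone 9, and 0 with these groups alone in the fit.

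At 6 days 3 were lower than at 4 days and 5 higher (7.11% and 5.36%). RAD54L had 27.4, 19 and 18.1 CPM at 6 days, against 15.1, 7.95 and 13.5 CPM at 4 days (0.82 ± 0.20). EME1 had 17, 9.57 and 12.6 CPM at 6 days, against 8.81, 5.54 and 8.68 CPM at 4 days (0.77 ± 0.22). Both stayed below all DMSO libraries. RAD51AP1 had 20.2, 15.4 and 27 CPM at 6 days, against 13, 11.1 and 15.5 CPM at 4 days (0.67 ± 0.18). MRE11 had 58.7, 40.9 and 51.1 CPM at 6 days, against 29.8, 36.1 and 41.7 CPM at 4 days (0.49 ± 0.14), and RAD52 40.3, 32 and 38.6 CPM at 6 days, against 27.3, 22.6 and 31.9 CPM at 4 days (0.44 ± 0.13). RAD51B, FANCL and SLX4 were the 3 that were lower. The count was 3 without the 6-day library of clone 1 or of clone 9, 3 and 4 in limma on log2(TPM + 1) and log2(TPM + 0.1), and 0 with these groups alone in the fit.

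Promoters are shown because many members are known S-phase genes. The words that form the core of E2F sites were searched on both strands in the 250 bases before each RefSeq start (GRCh38.p14): TTCCCGC was one of them, TTCGCGC another, TTGCCGC another and TTGGCGC the last. The CCAAT box was searched too, as were TTTGAA and TTCGAA, the words of the CHR element of cell cycle promoters, and the last E2F word read on the other strand can overlap it. Of the 37 members, 32 had a start window in the table. An E2F word was present in 12 of these 32 genes (37.5%) and in 3541 of all 27305 genes with a window (12.97%). Among the 22 members with a window that were lower both at 4 days of IAA and with Cre 4OHT, 11 held one, against 1 of the 10 other members. In the list of cell cycle genes 23 of 45 held one. CCAAT was present in 13 of 32 members (40.6%), in 37.0% of all genes and in 30 of 45 cell cycle genes (66.7%). A CHR word was present in 2 of 32 members (6.25%), in 17.2% of all genes and in 10 of 45 cell cycle genes (22.2%). The median G+C content of the windows was 62.6% for the members and 58.0% for all. A match is a description of the letters and not a site, and its link to the changes was not tested.

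The 120 bases before the start are given for RAD54L (chr1:46247568-46247687), EME1 (chr17:50373109-50373228) and RAD51AP1 (chr12:4538770-4538889), which were lower and hold an E2F word there. They stand beside FANCD2 (chr3:10026317-10026436), which fell most at 4 days and holds neither word there, and MUS81 (chr11:65860313-65860432) and RAD50 (chr5:132556857-132556976), which were not lower. The MUS81 start in RefSeq lies downstream of the start of the gene in GENCODE. All are on the plus strand, and capitals mark E2F words and CCAAT boxes on either strand.
RAD54L: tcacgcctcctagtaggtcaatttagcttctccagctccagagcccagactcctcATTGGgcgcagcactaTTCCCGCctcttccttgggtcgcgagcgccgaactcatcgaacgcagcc
EME1: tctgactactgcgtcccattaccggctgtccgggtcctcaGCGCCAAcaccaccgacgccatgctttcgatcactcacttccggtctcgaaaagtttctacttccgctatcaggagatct
RAD51AP1: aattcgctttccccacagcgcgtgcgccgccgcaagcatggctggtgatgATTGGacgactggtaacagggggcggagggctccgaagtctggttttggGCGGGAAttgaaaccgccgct
FANCD2: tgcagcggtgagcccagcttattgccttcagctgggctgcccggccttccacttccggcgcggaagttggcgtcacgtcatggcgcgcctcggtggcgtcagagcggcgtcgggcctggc
MUS81: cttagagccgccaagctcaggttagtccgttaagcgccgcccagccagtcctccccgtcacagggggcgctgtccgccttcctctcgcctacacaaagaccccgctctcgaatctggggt
RAD50: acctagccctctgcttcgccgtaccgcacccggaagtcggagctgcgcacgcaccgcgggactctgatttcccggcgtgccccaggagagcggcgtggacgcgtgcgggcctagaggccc

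Excision of the floxed Ku80 allele gave the largest count of lower members. With 4OHT in Cre cells, 30 of 37 were lower and 0 higher (27.5% and 26.4% of all genes), 22 of them by at least 2-fold, with a median log2 fold change of -1.39. Without Cre, 4OHT left 1 lower and 7 higher (6.44% and 7.26% of all genes; median 0.12). Tested directly, the response to 4OHT was lower with Cre than without it in 29 members and higher in 0 (22.4% and 18.8% of all genes). The labels do not say whether numbered libraries of a group were separate cultures, so these p-values cover a spread that may be technical.

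Of the BRCA genes, 4 of 5 were lower with Cre 4OHT. BRIP1 had 5.74 and 6.78 CPM with 4OHT, against 31.1 and 33.2 CPM with ethanol (-2.36 ± 0.10). BARD1 had 4.18 and 4.63 CPM with 4OHT, against 19.5 and 20.01 CPM with ethanol (-2.17 ± 0.13). BRCA2 had 4.60 and 4.39 CPM with 4OHT, against 15.7 and 16.9 CPM with ethanol, and BRCA1 12.7 and 15.9 CPM with 4OHT, against 37.7 and 38.4 CPM with ethanol. In all of these the 4OHT libraries lay far below the ethanol libraries. PALB2 did not pass, at 20.2 and 20.5 CPM with 4OHT and 19.7 and 21.6 CPM with ethanol.

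Of the strand pairing and exchange genes, 7 of 9 were lower. RAD51AP1 had 4.46 and 2.70 CPM with 4OHT, against 16 and 16.3 CPM with ethanol (-2.16 ± 0.18). XRCC2 had 6.02 and 5.32 CPM with 4OHT, against 21.9 and 20.2 CPM with ethanol, and RAD54B 6.45 and 6.78 CPM with 4OHT, against 21.7 and 23.9 CPM with ethanol. These groups are far apart. RAD54L had 9.07 and 8.25 CPM with 4OHT, against 27.6 and 25.8 CPM with ethanol. The changes of XRCC3 (26.1 and 23.1 CPM with 4OHT, against 47.1 and 42.8 CPM with ethanol) and RAD51C (20.9 and 22.9 CPM with 4OHT, against 33.1 and 34.2 CPM with ethanol) were smaller. RAD51D had 12.5 and 10.8 CPM with 4OHT, against 16.3 and 16.1 CPM with ethanol (-0.47 ± 0.10). RAD51B and RAD52 did not pass.

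Of the resection genes, 6 of 8 were lower, and EXO1 fell most of all members. It had 5.595 and 5.78 CPM with 4OHT, against 34.9 and 35.4 CPM with ethanol (-2.63 ± 0.09, edgeR adjusted p = 1.15e-10). BLM had 5.45 and 6.63 CPM with 4OHT, against 28.1 and 33 CPM with ethanol, and DNA2 4.89 and 5.55 CPM with 4OHT, against 15.6 and 16.3 CPM with ethanol. Both dropped by more than 2-fold. WRN had 24.8 and 24.8 CPM with 4OHT, against 39.6 and 41.1 CPM with ethanol, and NBN 54.3 and 51.6 CPM with 4OHT, against 74.9 and 78.1 CPM with ethanol. MRE11 had 22.3 and 25.1 CPM with 4OHT, against 28.4 and 27.6 CPM with ethanol (-0.24 ± 0.08), and it was the one call lost when a library was left out. RAD50 and RBBP8 did not pass, with RBBP8 at 89.7 and 86.3 CPM with 4OHT and 95.7 and 101 CPM with ethanol.

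Of the Fanconi core genes, 7 of 8 were lower, FANCF being the exception. FANCB had 1.84 and 1.31 CPM with 4OHT, against 7.08 and 6.59 CPM with ethanol (-2.10 ± 0.20). FANCG had 12.9 and 14.9 CPM with 4OHT, against 53.9 and 53.6 CPM with ethanol, and FANCA 47.4 and 45.5 CPM with 4OHT, against 156 and 144 CPM with ethanol. All 3 fell by more than 2-fold. FANCE, which did not pass with IAA, had 9.35 and 8.56 CPM with 4OHT, against 23.7 and 23.5 CPM with ethanol (-1.39 ± 0.09). FANCL had 19.7 and 20.4 CPM with 4OHT, against 40.6 and 46.7 CPM with ethanol, and FANCC 11.3 and 13 CPM with 4OHT, against 26.2 and 25.4 CPM with ethanol. FANCM, the translocase that anchors the core to DNA, changed less, at 8.22 and 7.86 CPM with 4OHT, against 15.4 and 14.5 CPM with ethanol.

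Both clamp genes were lower. FANCD2 had 15.2 and 15.3 CPM with 4OHT, against 78.3 and 76.5 CPM with ethanol (-2.34 ± 0.08), and FANCI 27.5 and 30.3 CPM with 4OHT, against 128 and 139 CPM with ethanol (-2.21 ± 0.07). Of the late-junction genes 4 of 5 were lower: EME1 had 7.30 and 5.94 CPM with 4OHT, against 32.8 and 33.7 CPM with ethanol (-2.32 ± 0.12). GEN1 had 9.42 and 11.2 CPM with 4OHT, against 26.7 and 27.4 CPM with ethanol, and TOPBP1 26.5 and 24.7 CPM with 4OHT, against 52.5 and 52.7 CPM with ethanol. MUS81, at 29.5 and 30.3 CPM with 4OHT and 31 and 28.5 CPM with ethanol, did not pass, unlike in the IAA comparisons. SLX4 fell by 0.60 ± 0.07 with Cre, but also by 0.42 ± 0.07 without it, where it had 29.4 and 30.3 CPM with 4OHT, against 40.5 and 39.2 CPM with ethanol, and the difference of -0.18 ± 0.10 did not pass.

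The 7 members that 4OHT raised without Cre moved little. XRCC2 had 21.9 and 20.4 CPM with 4OHT, against 16.1 and 13.6 CPM with ethanol (0.51 ± 0.10). FANCL had 56 and 51.5 CPM with 4OHT, against 42 and 37.2 CPM with ethanol (0.44 ± 0.09), and RAD51D 18.6 and 19.5 CPM with 4OHT, against 14 and 14.1 CPM with ethanol (0.44 ± 0.09). In none of these did the groups overlap. BRCA1 had 41.1 and 41.6 CPM with 4OHT, against 31.5 and 30.6 CPM with ethanol, and BRIP1 31.9 and 30.2 CPM with 4OHT, against 23.3 and 22.9 CPM with ethanol. BARD1 had 19.9 and 20.5 CPM with 4OHT, against 17.1 and 13.6 CPM with ethanol, and EXO1 33 and 31.7 CPM with 4OHT, against 27.2 and 25.5 CPM with ethanol. The calls without Cre numbered 3 and 5 without the first and the second 4OHT library. They numbered 5 in DESeq2 (1330 of all 16726 genes) and 1 (BRCA1) in limma on log2(TPM + 1) or log2(TPM + 0.1) (574 and 594 of 16726).

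**Figure D3:**
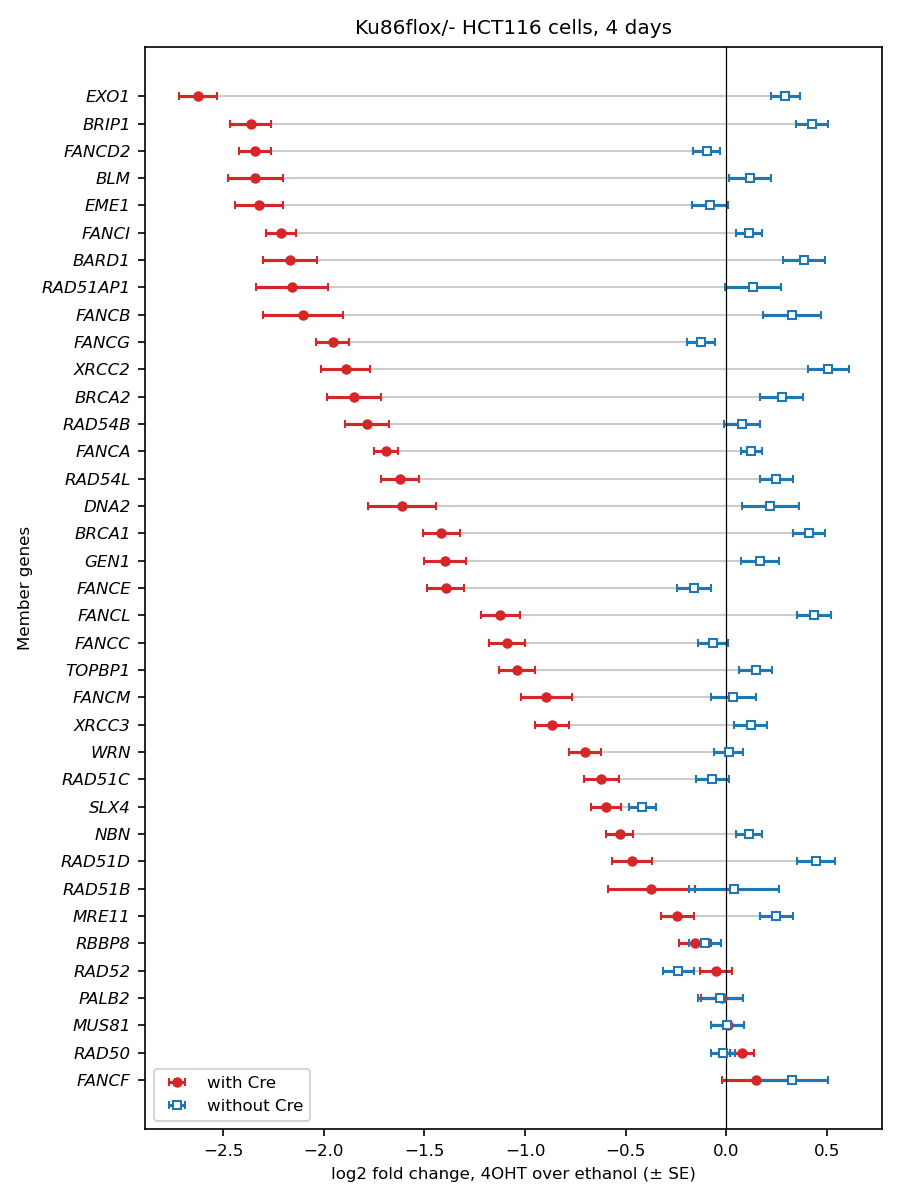
Log2 fold change of each member (rows) for 4OHT over ethanol in Ku86flox/- cells with Cre (filled) and without Cre (open); bars are the SE. The Cre values of 30 members lie below 0 past the test, from MRE11 at -0.24 to EXO1 at -2.63, while the values without Cre stay between -0.42 and 0.51.

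Both routes to Ku80 loss lowered the same 26 members at 4 days, which is 26 of the 27 lower with IAA and 26 of the 30 lower with 4OHT. Of all 16462 genes tested in both fits 10.2% were lower in both, 1680 of them, which is 61.2% of those lower with IAA and 36.7% of those lower with 4OHT. RBBP8 was lower with IAA alone, FANCE, MRE11, SLX4 and WRN with 4OHT alone, and FANCF, MUS81, PALB2, RAD50, RAD51B and RAD52 with neither. The difference between the routes was not tested gene by gene. The cell cycle list summed to 1646 ± 39.8 CPM with 4OHT and 6477 ± 113 CPM with ethanol in Cre cells (SD, n = 2 each), and its part in the drop was not tested. CDKN1A, the p53 target that blocks entry into S phase, was higher at 4 days of IAA (1.23 ± 0.20) and with Cre 4OHT (1.73 ± 0.06).

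The CDK4/6 inhibitor alone also went with lower members. At 4 days 13 were lower and 0 higher than at 2 days of DMSO (3.84% and 3.85% of all genes; median -0.47). FANCA changed most, with 73.6, 75.5 and 79.5 CPM with the inhibitor, against 143, 165 and 168 CPM with DMSO (-1.06 ± 0.16, edgeR adjusted p = 1.36e-04). WRN changed least, with 53.2, 52.5 and 40.3 CPM with the inhibitor, against 52.8, 49 and 44.4 CPM with DMSO. FANCA was lower in every clone, and the WRN groups overlap. The count was 3 without the inhibitor library of clone 9, the one rich in mitochondrial counts, and 7 without the DMSO library of clone 7 or of clone 9. At 2 days of inhibitor 23 were lower and 0 higher (13.6% and 20.8% of all genes), and 15 were called without the inhibitor library of clone 9. That comparison sets the VIM-rich libraries against the others. Against the 1-day DMSO libraries, which are VIM-rich too, 10 were lower and 0 higher (1.68% and 1.95%). Both of these groups hold 2 libraries, and most of the 10 calls were lost whichever library was left out.

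On top of the inhibitor, 14 members were lower and 0 higher with 4 days of IAA (5.1% and 6.13% of all genes; median -0.41). FANCD2 had 23.8, 25.9 and 28.8 CPM with IAA and inhibitor, against 62.5, 57.6 and 49.2 CPM with inhibitor alone (-1.11 ± 0.18, edgeR adjusted p = 1.17e-04). No library with IAA reached the lowest without it. FANCB fell by 1.02, DNA2 by 0.91 and EXO1 by 0.82. In limma on log2(TPM + 1) and on log2(TPM + 0.1) the count was 2 (1612 and 1619 of all 18877 genes). At 2 days edgeR called none (0.117% of all genes were lower and 0.297% higher), 9 members had an unadjusted p under 0.05, limma called 0 and DESeq2 called 1, FANCD2. FANCD2 had 30.5 and 37.7 CPM with IAA and inhibitor, against 58.3 and 64.9 CPM with inhibitor alone (-0.85 ± 0.21), and passed with the clone as a block (edgeR adjusted p = 0.0129).

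The 4-day response to IAA was smaller on the inhibitor than without it in 6 members and larger in 0 (2.19% of all genes had a higher and 2.5% a lower response). EME1 had 11.2, 12 and 11.6 CPM with IAA and inhibitor, against 15.9, 19.2 and 17.8 CPM with inhibitor alone, and its response differed by 1.43 ± 0.32 on the log2 scale. RAD54L had 18.5, 17.9 and 16.9 CPM with IAA and inhibitor, against 23, 24.6 and 22.3 CPM with inhibitor alone, a difference in response of 1.29 ± 0.28. RAD51AP1 had 16.4, 16.5 and 17.9 CPM with IAA and inhibitor, against 24.5, 20.4 and 19.998 CPM with inhibitor alone (1.104 ± 0.26). All 6 were already lower with the inhibitor alone than with DMSO. FANCG had 18.1, 18.3 and 17.5 CPM with IAA and inhibitor, against 25.1, 27.8 and 23 CPM with inhibitor alone (0.98 ± 0.22). FANCA had 39.2, 45.7 and 51.9 CPM with IAA and inhibitor, against 73.6, 75.5 and 79.5 CPM with inhibitor alone (0.97 ± 0.23). FANCD2, with a difference of 1.03 ± 0.25, was lost without the inhibitor library of clone 9, and 10 members were called without the 4-day IAA library of clone 9.

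**Figure D4:**
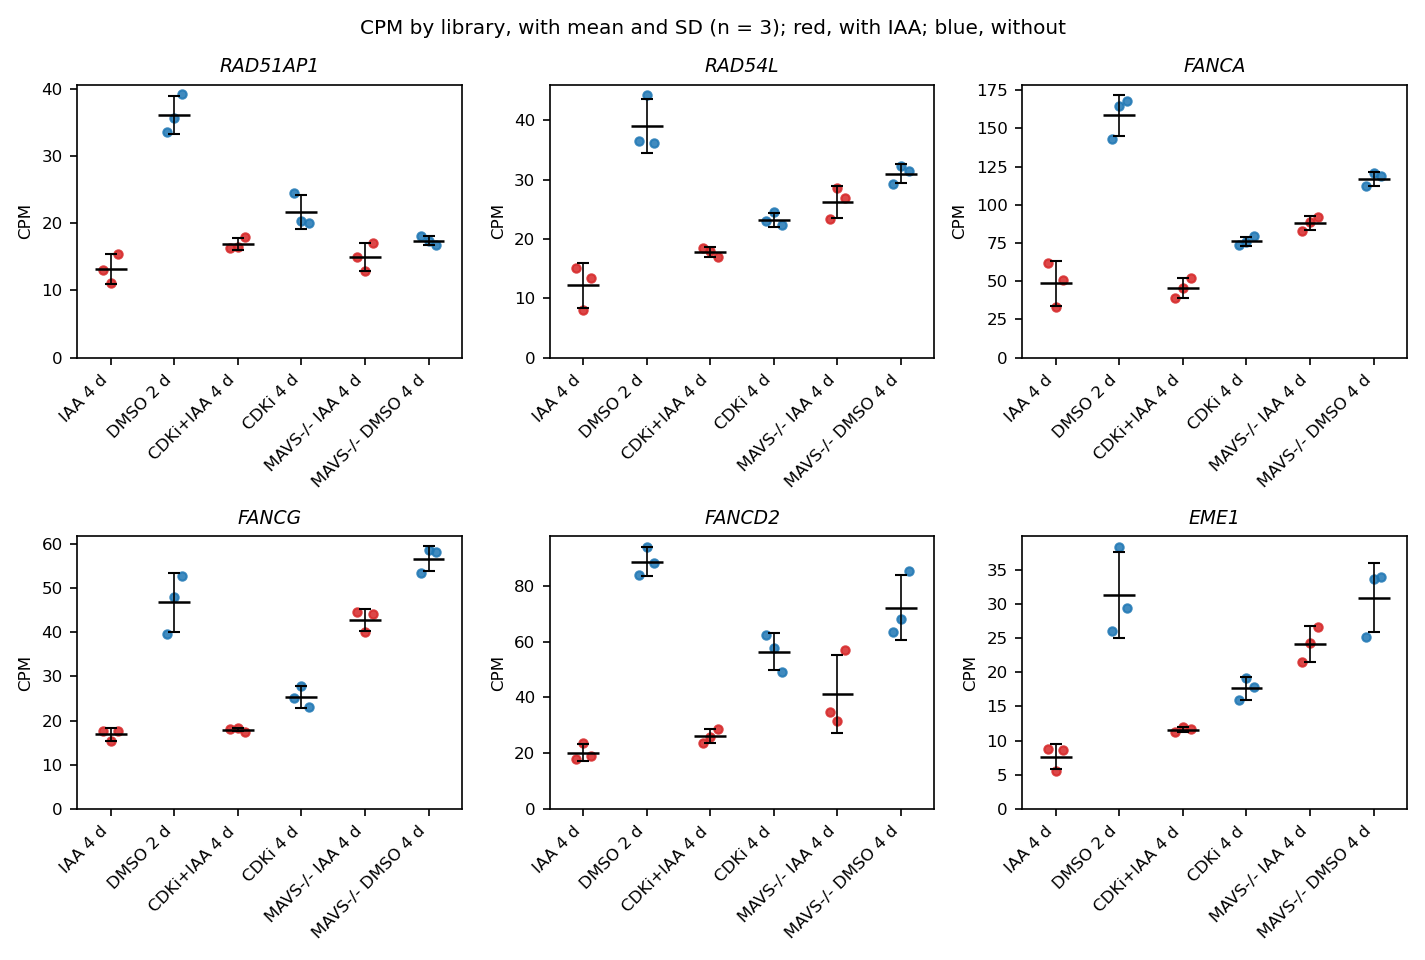
CPM of 6 members whose IAA response was smaller both on the CDK4/6 inhibitor and in MAVS-/- clones, by library (points; 3 clones a group), with mean and SD. FANCD2, FANCA, FANCG and RAD54L lie lower with IAA in every pair of groups, and of the 6 only FANCD2 passed the test in MAVS-/- clones. The inhibitor alone lies below DMSO in each panel.

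In MAVS-/- clones, where IAA and DMSO were both given for 4 days, 2 members were lower and 0 higher (3.15% and 4.73% of all genes; median -0.23). FANCD2 had 34.8, 31.5 and 57.1 CPM in clones 1, 13 and 15 with IAA, against 63.3, 68.1 and 85.3 CPM with DMSO (-0.81 ± 0.17, edgeR adjusted p = 0.00342). BLM had 17.5, 15.5 and 17.3 CPM with IAA, against 23.8, 28.8 and 22.6 CPM with DMSO (-0.58 ± 0.17, edgeR adjusted p = 0.034). In both genes each clone had less with IAA, and the groups do not overlap. With the clone as a block 4 members were lower, BRIP1 and DNA2 in addition. BLM was lost without either library of clone 1, either library of clone 13 or the IAA library of clone 15, while FANCD2 passed without any single library. With these groups alone in the fit no member passed (FANCD2 edgeR adjusted p = 0.0788). DESeq2 called 6, among them MUS81 as higher, and 2051 of all 18877 genes.

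The response to IAA was smaller in MAVS-/- clones than in the MAVS-competent ones in 10 members and larger in 0 (2.46% of all genes had a higher and 2.39% a lower response). EME1 had 21.5, 24.3 and 26.7 CPM with IAA, against 25.2, 33.7 and 33.9 CPM with DMSO in MAVS-/- clones, a difference in response of 1.67 ± 0.31. RAD54L had 23.3, 28.6 and 27 CPM with IAA, against 29.2, 32.3 and 31.4 CPM with DMSO (1.44 ± 0.27). RAD51AP1 had 14.9, 12.9 and 17 CPM with IAA, against 18.1, 17.3 and 16.8 CPM with DMSO (1.24 ± 0.26). FANCA had 83, 88.6 and 92.2 CPM with IAA, against 112, 121 and 119 CPM with DMSO (1.29 ± 0.22), and FANCG 44.6, 40.002 and 44.1 CPM with IAA, against 53.3, 58.5 and 58.2 CPM with DMSO (1.07 ± 0.22). EXO1 had 17.1, 24.2 and 22 CPM with IAA, against 25.9, 29.3 and 21.5 CPM with DMSO (1.18 ± 0.27). FANCI had 107, 103 and 127 CPM with IAA, against 119.5, 138 and 118 CPM with DMSO (1.06 ± 0.20). FANCD2, at 1.32 ± 0.25, is among them although it was lower in both genotypes. RAD54B had 13.7, 15.9 and 14.6 CPM with IAA, against 17.2, 25.5 and 17 CPM with DMSO (1.02 ± 0.27), and BRCA1 41.5, 36.2 and 50.8 CPM with IAA, against 42.9, 47.7 and 42.1 CPM with DMSO (0.80 ± 0.22). Within MAVS-/- clones the IAA and DMSO libraries overlap for EME1, RAD51AP1, EXO1, FANCI and BRCA1. Of these 10 members only FANCD2 passed the test of IAA against DMSO within MAVS-/- clones. The differences of RAD54B and BRCA1 were the smallest and the ones lost without single libraries.

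The controls behind that difference were not alike. MAVS-/- clones at 4 days of DMSO had 1271, 1419 and 1293 CPM summed over the members, against 2118, 2288 and 2249 CPM in Ku80-AID clones at 2 days of DMSO, and in this comparison, added later, 25 members were lower and 1 higher (21.6% and 24.5% of all genes). BRCA2 was lower by 1.92 ± 0.19, XRCC2 by 1.85 ± 0.19 and EXO1 by 1.37 ± 0.19, while EME1 (-0.02 ± 0.22), FANCG (0.28 ± 0.15) and FANCD2 (-0.30 ± 0.17) did not pass. At 4 days of IAA, 16 members were lower and 10 higher in MAVS-/- than in MAVS-competent clones (23.9% and 25.6%). Genotype, clone and, between the DMSO groups, time in culture cannot be told apart here.

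HEK293 cells that lost Ku70 had no general drop of the members. Without doxycycline 3 were lower and 7 higher (10.9% and 11.1% of all genes), and the median log2 fold change was 0.05. FANCD2 was lower, with 129.7, 122 and 124 CPM without doxycycline in clones Sa11, SB and TI, against 204, 196 and 205 CPM with it (-0.69 ± 0.11, edgeR adjusted p = 0.00344). FANCL had 111, 182 and 124 CPM without doxycycline, against 243, 222 and 206 CPM with it (-0.69 ± 0.18). DNA2 had 69.4, 66.6 and 66.9 CPM without doxycycline, against 87.4, 88.5 and 92.9 CPM with it (-0.41 ± 0.10). In these genes no library without doxycycline reached the lowest with it. The cell cycle list summed to 12796 ± 650.1 CPM without doxycycline and 12198 ± 372 CPM with it (SD, n = 3 each).

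EXO1, the member with the largest drop in the Cre cells, was higher in HEK293. It had 458, 338 and 526 CPM without doxycycline, against 228, 254 and 199.996 CPM with it (0.96 ± 0.18, edgeR adjusted p = 0.00702). RAD54L had 75.8, 55.1 and 61.8 CPM without doxycycline, against 44.7, 34.2 and 40.9 CPM with it (0.69 ± 0.15). In both the groups do not overlap, and clone SB without doxycycline was the lowest of its group. MUS81 had 43.7, 29.9 and 24.7 CPM without doxycycline, against 17.8, 20.2 and 19.2 CPM with it (0.78 ± 0.20). XRCC3 had 94, 76 and 64.8 CPM without doxycycline, against 51.3, 49 and 52.2 CPM with it, and RAD52 59.6, 46.2 and 46.8 CPM without doxycycline, against 32.5, 31.3 and 38.9 CPM with it. TOPBP1 had 194, 187 and 223 CPM without doxycycline, against 151, 156 and 153 CPM with it, and FANCM 75, 76.4 and 91.9 CPM without doxycycline, against 60.9, 63.8 and 61.6 CPM with it. FANCD2 and EXO1 passed under every alternative run, and the other 8 did not. The count was 3 without the doxycycline library of clone Sa11, 4 without that of SB, 3 without that of TI and 2 without the doxycycline-free library of Sa11. In limma on log2(TPM + 1) it was 5, with 2154 of all 15549 genes called. With the clone as a block 16 passed, 5 lower and 11 higher, and so did 5404 of all 15549 genes tested, in either direction.

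FANCD2 was called lower at 2, 4 and 6 days of IAA, at 4 days of IAA on the inhibitor, in MAVS-/- clones, with Cre 4OHT and in HEK293. FANCL and DNA2 were called lower at the 3 IAA times, at 4 days on the inhibitor, with Cre 4OHT and in HEK293, and did not pass in MAVS-/- clones (-0.31 ± 0.15 and -0.80 ± 0.26), where DNA2 passed with the clone as a block (edgeR adjusted p = 0.0379). Their HEK293 calls were both lost without any single doxycycline library or the doxycycline-free library of Sa11, and FANCL also without that of TI. On the inhibitor, DNA2 was lost without either library of clone 1 or of clone 7. With the 1-day DMSO control FANCL stood at 0.18 at 2 days of IAA. FANCF, RAD50 and RAD52 passed neither at any IAA time nor with Cre 4OHT.

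Of 48 other genes of these pathways, 24 were lower and 2 higher at 4 days of IAA, with a median of -0.42 (14.9% and 17.9% of all genes). With Cre 4OHT 27 of them were lower and 6 higher (27.5% and 26.4% of all genes). Those with the lowest p at 4 days of IAA were CHEK1 (-1.66 ± 0.12), the checkpoint kinase, UHRF1 (-1.63 ± 0.12), which keeps DNA methylation through replication, and MCM8 (-1.14 ± 0.11), a helicase of recombination. Of 52 cell cycle genes 51 were lower and 0 higher, among them TK1 (-2.08 ± 0.14), HELLS (-2.26 ± 0.16) and MCM7 (-1.79 ± 0.13). Of 7 mismatch repair genes 2 were lower and 0 higher, of 19 end-joining genes 5 were lower and 4 higher, and of 32 excision repair genes 12 were lower and 5 higher. Of 24 p53 targets 2 were lower and 17 higher. The counts of these further lists are for 4 days of IAA too, where 14.9% of all genes were lower and 17.9% higher.

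**Figure D5:**
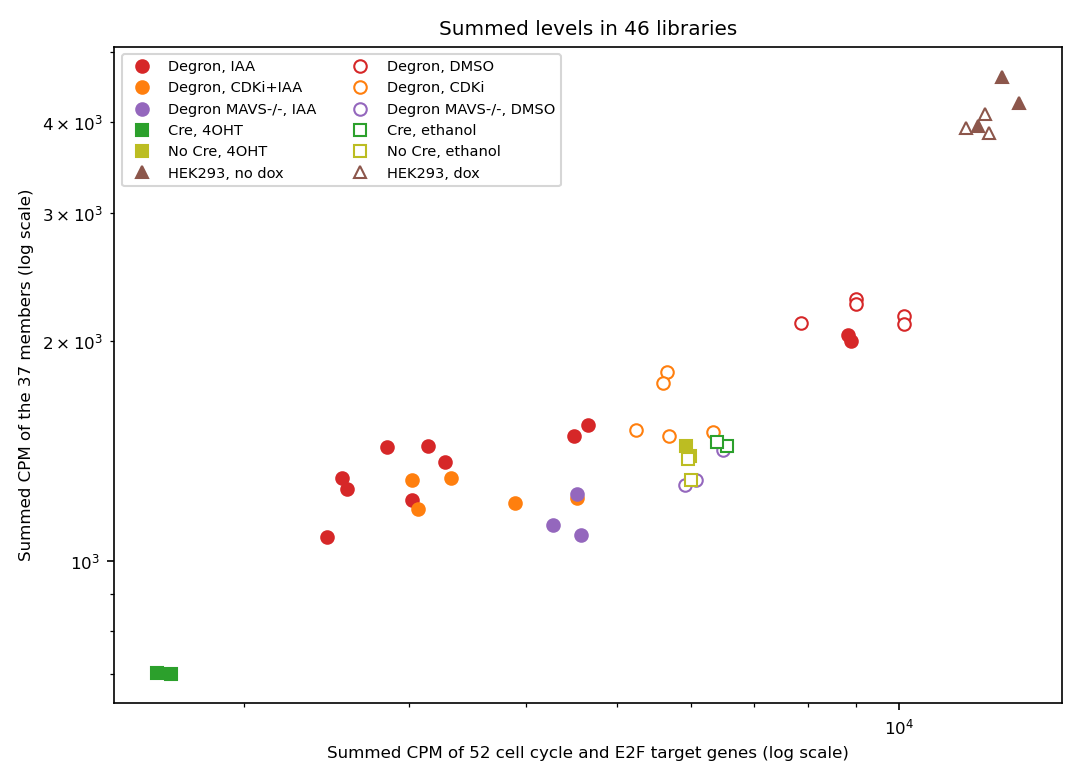
Summed CPM of the 37 members (vertical, log scale) against the summed CPM of the 52 cell cycle genes (horizontal, log scale) in the 46 libraries. Among HCT116 libraries those with Cre 4OHT lie lowest on both axes, and HEK293 libraries, made with another chemistry, are to be read against each other alone; the MAVS-/- DMSO libraries have member sums within the range of the Ku80-AID libraries at 4 days of IAA but higher cell cycle sums.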

How the data were processed

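RNA-seq of 46 libraries was analysed from the deposited gene tables, which hold estimated counts and TPM per library as the authors deposited them. Per the submitters' processing notes, Salmon 1.10.2, kallisto 0.50.0 and DESeq2 were used with GRCh38; the annotation version, strand setting and tool behind each table were not given in the sources used here. Per the labels, HCT116 RNA was poly-A selected and HEK293 RNA was depleted of ribosomal RNA.

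Estimated counts were rounded and tested with edgeR 4.0.16 (R 4.3.3) in 3 fits, 1 for the 32 Ku80-AID libraries (18877 genes after filterByExpr, 20 residual degrees of freedom), 1 for the 8 Ku86flox/- libraries (16726 genes, 4 residual degrees of freedom) and 1 for the 6 HEK293 libraries (15549 genes, 4 residual degrees of freedom). TMM factors, the quasi-likelihood test and Benjamini-Hochberg adjustment over all genes tested (threshold 0.05) were used, and CPM were computed with TMM-scaled totals. The edgeR test was tested on simulated data with known changes. Alternatives were DESeq2 1.42.0, limma 3.58.1 with the TPM as log2(TPM + 1) or log2(TPM + 0.1), RLE in place of TMM factors, all genes without the filter, the compared groups alone, a block for clone or replicate number, and leaving out each library; the 1-day DMSO control, leaving out clone 13 and 2 comparisons of MAVS-/- with MAVS-competent clones were added after seeing the data. Library totals ran from 9527918 to 45747408 counts, and the biological coefficient of variation between libraries was 21.7% in Ku80-AID, 4.63% in Ku86flox/- and 20.8% in HEK293 libraries. No pair of replicates was as alike as sampling noise would make it (lowest chi-square per degree of freedom 1.98).

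Clone numbers pair the samples because both arms come from the same clone, per the labels; the correlation of same-clone deviations was 0.25 to 0.47 in HEK293, 0.06 to 0.27 in MAVS-/- and 0.02 to 0.07 at 4 days of IAA. Any member may be named. Values per library are given for most members in Ku86flox/- cells and otherwise mainly for the member with the lowest p in each role group at 4 days of IAA, for members called upward or called in a difference of responses, and for the largest and smallest change at 4 days of CDKi; of other lists, the 3 genes with the lowest p and CDKN1A. The members, lists and tests were chosen with earlier results of these data known. Motifs and promoters came from RefSeq, and gene positions and overlaps from GENCODE.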

Additional observations from a re-analysis of the deposited data

Results flagged for a closer look

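The following results stood out because a test of the difference between 2 responses passed in edgeR's quasi-likelihood test (adjusted p under 0.05), and their values are differences of log2 fold changes. On the CDK4/6 inhibitor, 6 members had a less negative 4-day response to IAA than without it, with EME1 at 1.43, RAD54L at 1.29, RAD51AP1 at 1.104, FANCD2 at 1.03, FANCG at 0.98 and FANCA at 0.97. In MAVS-/- clones 10 members had a less negative response than in MAVS-competent clones, with EME1 at 1.67, RAD54L at 1.44, FANCD2 at 1.32, FANCA at 1.29, RAD51AP1 at 1.24, EXO1 at 1.18, FANCG at 1.07, FANCI at 1.06, RAD54B at 1.02 and BRCA1 at 0.80. In both cases the MAVS-competent response without inhibitor is the same one and its control is the 2-day DMSO group, so these differences are not independent of each other.

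In Ku86flox/- cells 29 members had a lower response to 4OHT with Cre than without it. The largest differences were EXO1 at -2.92, BRIP1 at -2.79, BARD1 at -2.55, BLM at -2.46, FANCB at -2.43, XRCC2 at -2.40, FANCI at -2.33, RAD51AP1 at -2.29, FANCD2 at -2.24, EME1 at -2.24. They were followed by BRCA2 at -2.12, RAD54L at -1.87, RAD54B at -1.86, DNA2 at -1.83, FANCG at -1.83, BRCA1 at -1.83, FANCA at -1.82, GEN1 at -1.56, FANCL at -1.56, FANCE at -1.23. The smallest were TOPBP1 at -1.19, FANCC at -1.02, XRCC3 at -0.99, FANCM at -0.93, RAD51D at -0.91, WRN at -0.71, NBN at -0.64, RAD51C at -0.55 and MRE11 at -0.49. What sets any of these differences was not tested.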

How the results depend on the processing

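Of 241 calls of members over the planned comparisons, 134 held under every alternative other than the 1-day DMSO control, which this count leaves out. Among them were 18 at 4 days of IAA, 28 with Cre 4OHT and 2 in HEK293 (FANCD2 and EXO1). There were 0 in MAVS-/- clones, 0 between 4 and 2 days and 0 between 6 and 4 days of IAA. There was 1 without Cre, 3 with CDKi for 4 days, 2 for IAA on the inhibitor at 4 days and 2 for the difference on the inhibitor. Of 3098 alternative values of single called members, 2712 kept their direction and call, 383 kept the direction and lost the call, and 3 turned: with the 1-day DMSO control, FANCL stood at 0.18 at 2 days of IAA and 0.13 at 2 days of CDKi, and RAD52 at 0.030 at 2 days of CDKi. The cause was not tested.

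Counts of called members that moved by over 1.5 times were the following. With the compared groups alone in the fit, fewer libraries and genes enter. In such fits 2 were called at 1 day of IAA (1607 of all 16081 genes). Between 4 and 2 days of IAA 0 were called (264 of all 14935 genes), and between 6 and 4 days 0 (54 of all 15398 genes). Such fits gave 6 for IAA on the inhibitor at 2 days (575 of all 15904 genes) and 0 in MAVS-/- clones (775 of all 15791 genes). In limma on either scale 16 were called at 2 days of IAA (on log2(TPM + 1), 3126 of all 18877 genes). On that scale and the other, 2 were called for IAA on the inhibitor at 4 days (1612 of 18877) and 1 in MAVS-/- clones (1122 of 18877). Likewise 1 was called without Cre (574 of 16726) and 5 in HEK293 (2154 of 15549). Between 6 and 4 days 3 were called on log2(TPM + 1) (1623 of 18877) and 4 on log2(TPM + 0.1) (1637 of 18877). DESeq2 called 1 for IAA on the inhibitor at 2 days (292 of all 18877 genes) and 6 in MAVS-/- clones (2051 of 18877). It called 16 for the difference between genotypes (1390 of 18877) and 5 without Cre (1330 of 16726). Without the count filter 1 was called for IAA on the inhibitor at 2 days (250 of all 38167 genes) and 4 in MAVS-/- clones (1512 of 38167). With the 1-day DMSO control 10 were called at 2 days of CDKi, all lower (1.68% of all genes were lower and 1.95% higher). With that control 13 were called for the difference on the inhibitor, 11 higher and 2 lower (15.8% and 16.1% of all genes). For the difference between genotypes it gave 16, 15 higher and 1 lower (20.1% and 15.8% of all genes). Without both libraries of clone 13, 1 was called in MAVS-/- clones (756 of all 18827 genes).

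With the clone as a replicate block, 1 was called for IAA on the inhibitor at 2 days (FANCD2), 4 in MAVS-/- clones (BRIP1 and DNA2 in addition) and 16 in HEK293 (PALB2, RAD50, BLM and FANCF in addition as higher, NBN and SLX4 as lower). In the same order, 165 of 18877, 1873 of 18877 and 5404 of 15549 of all genes tested were called with this block. Under the same pairing NBN was lost at 2 and 4 days of IAA and RAD54L at 2 days of CDKi, WRN was gained at 4 days of IAA with and without the inhibitor, and RAD51C and FANCC were gained in the difference between genotypes. No clone is shared between the MAVS-/- and the MAVS-competent groups, so a clone block cannot be separated from genotype there. Its calls for those 2 comparisons are not given. The block changed no other call of a member in the comparisons of MAVS-competent groups with the 2-day DMSO control. Nor did it within the inhibitor groups, within Ku86flox/- cells or within HEK293. In Ku86flox/- cells the numbers pair nothing stated, and the correlation of same-numbered libraries was 0.01 with Cre and 0.06 without.

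Leaving out 1 library at a time gave 15 to 25 called members after IAA for 2 days, 26 to 28 after IAA for 4 days and 27 to 30 after IAA for 6 days. It gave 0 to 10 between 4 and 2 days of IAA, 3 to 10 between 6 and 4 days, 15 to 23 with CDKi for 2 days, 3 to 10 with CDKi for 4 days, 10 to 16 for IAA on the inhibitor at 4 days, 5 to 10 for the difference on the inhibitor, 0 to 0 at 1 day of IAA and for IAA on the inhibitor at 2 days, 1 to 3 in MAVS-/- clones, 8 to 15 for the difference between genotypes, 29 to 30 with Cre 4OHT, 29 for its difference from no-Cre cells, 3 to 10 without Cre and 2 to 13 in HEK293. Where this left a group with 1 library, that library was assumed to vary like the other groups.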
